A study of Mus musculus with 24 samples.

Results

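The enzymes described here write and erase histone lysine methylation or remove histone acetylation. They are the autosomal and X-linked protein-coding genes whose mouse symbol begins with Kmt or Kdm and a digit, or with Setd, together with Ehmt1 and Ehmt2, Ezh1 and Ezh2, the Nsd genes, the Hdac genes and the Sirt genes. This rule took 60 genes out of 56923 identifiers, 4 of them X-linked (Kdm5c, Kdm6a, Hdac6 and Hdac8), and all 60 held enough reads to be tested. It left out 4 further matches, namely the Y-linked Kdm5d, the pseudogenes Setd9-ps and Kdm4dl and the noncoding RNA Kdm6bos.

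The RNA came from nuclei of mouse heart ventricles that were sorted on PCM1, a protein on the envelope of cardiomyocyte nuclei, at postnatal days P1, P7 and P14. Control mice were XMLC2(-)Casp2(fl/fl). Casp2-depleted mice were XMLC2(+)Casp2(fl/fl), in which a Cre recombinase under a cardiac myosin light chain promoter removes the floxed Casp2 gene in cardiomyocytes. All mice of both groups carried the floxed allele on a C57BL/6N background, both sexes were used, and each library was a pool of hearts, 2 for P14, 6 for P7 and 15 for P1. Each of the 6 day-by-genotype groups had 4 libraries, and 21 of the 24 libraries were used, without replicate 1 of the P1 controls, replicate 3 of the P14 controls and replicate 1 of the P14 Casp2-depleted group, which the study left out for low quality. The libraries held 3' sequence tags counted over whole genes, exons and introns together.

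Methyl groups on histone lysines are read by position. Methylation of H3K4 is found at promoters and enhancers, of H3K36 along transcribed gene bodies, of H3K27 and H3K9 in silenced chromatin, and of H4K20 in compact chromatin and around cell division. Each mark has its own methyltransferases, most with a catalytic SET domain, while some demethylases act on several marks. Deacetylases of class I sit in nuclear corepressor complexes, those of class IIa bind MEF2 transcription factors and shuttle between nucleus and cytoplasm, and sirtuins consume NAD. In heart muscle the days after birth are the time when cardiomyocytes stop dividing and the fetal gene programme gives way to the adult one, and Ezh2, the class IIa deacetylases and Hdac1 and Hdac2 are known regulators of heart development and growth.

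Promoter sequences from RefSeq on GRCm38.p6, 300 bases around each transcript start and mostly before it, were matched by symbol for 46 of the 60 genes, giving 63 promoters. They are shown for Ezh2 and Kmt2a, which fell after P7, and for the 2 listed starts of Hdac9, whose reads overlapped at all ages. These promoters were picked because they differed widely in CpG content. Whether CpG content or motifs went along with the fall was not tested. Capitals mark matches, on either strand, to the CCAAT box (CCAAT), the GC box (GGGCGG), the TATA box (TATAAA) and one form of the E2F site (TTTGGCGC). All are printed 5' to 3' on the gene's own strand, and the matches in them do not overlap.
Ezh2, chr6:47594981-47595280, minus strand: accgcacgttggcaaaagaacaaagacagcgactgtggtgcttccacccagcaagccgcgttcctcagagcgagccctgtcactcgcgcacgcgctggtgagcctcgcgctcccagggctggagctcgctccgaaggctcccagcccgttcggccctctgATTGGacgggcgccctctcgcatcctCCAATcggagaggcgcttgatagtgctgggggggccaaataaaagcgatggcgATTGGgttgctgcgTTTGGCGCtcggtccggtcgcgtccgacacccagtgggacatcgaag
Kmt2a, chr9:44881240-44881539, minus strand: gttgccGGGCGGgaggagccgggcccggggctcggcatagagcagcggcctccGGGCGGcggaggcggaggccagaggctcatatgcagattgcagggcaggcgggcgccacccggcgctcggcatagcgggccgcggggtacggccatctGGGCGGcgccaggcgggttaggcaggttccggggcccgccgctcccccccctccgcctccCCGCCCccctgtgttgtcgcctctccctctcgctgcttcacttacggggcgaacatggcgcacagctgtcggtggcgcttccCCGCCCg
Hdac9, chr12:34917046-34917345, minus strand: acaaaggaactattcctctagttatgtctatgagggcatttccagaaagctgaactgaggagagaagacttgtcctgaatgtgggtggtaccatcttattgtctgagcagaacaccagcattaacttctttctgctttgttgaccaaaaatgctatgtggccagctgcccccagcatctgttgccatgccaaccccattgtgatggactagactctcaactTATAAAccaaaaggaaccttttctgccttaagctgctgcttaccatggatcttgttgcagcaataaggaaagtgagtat
Hdac9, chr12:34528840-34529139, minus strand: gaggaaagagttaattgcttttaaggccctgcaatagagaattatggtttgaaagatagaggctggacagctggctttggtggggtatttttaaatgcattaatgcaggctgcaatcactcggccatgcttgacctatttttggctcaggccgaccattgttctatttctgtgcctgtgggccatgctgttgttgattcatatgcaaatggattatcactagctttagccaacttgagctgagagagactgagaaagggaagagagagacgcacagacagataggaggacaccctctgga

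The Ezh2 promoter held 31 CpG dinucleotides, 3 CCAAT boxes and the E2F form. The Kmt2a promoter held 36 CpG and 5 GC boxes. The first Hdac9 promoter held no CpG and 1 TATA box, and the second held 3 CpG and none of these motifs. The 63 promoters of the enzymes had a median of 23 CpG, against 7 over all 32851 promoters of the table. The GC box was present in 63.5% of them against 35.7% of all, the CCAAT box in 41.3% against 37.4%, and the TATA box in 3.17% against 13.6%. Of all promoters 0.514% held the E2F form, and among those of the enzymes only that of Ezh2 did. A match of letters describes the sequence and does not show that a factor binds there.

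Before any comparison, the libraries were set against their labels. Casp2 itself was too rare to check the genotype, with 5, 3, 1 and 0 reads in the P7 control libraries, 5, 3, 0 and 0 in the P7 Casp2-depleted libraries and none in the other libraries used. All 10 cardiomyocyte markers had a read in every library. Reads on genes numbered 1220640 to 2727103 at P1, 1452114 to 2924097 at P7 and 891817 to 1278961 at P14, and reads on no gene made up 36.8 to 73.9%, 34.3 to 64.3% and 63.7 to 76.1% of the reads placed. Of the 60 enzymes, 41 to 57 had a read in a P1 library, 50 to 60 in a P7 library and 34 to 46 in a P14 library. The enzymes took 0.387 to 0.624% of the gene reads at P1, 0.427 to 0.549% at P7 and 0.295 to 0.418% at P14.

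**Figure D1:**
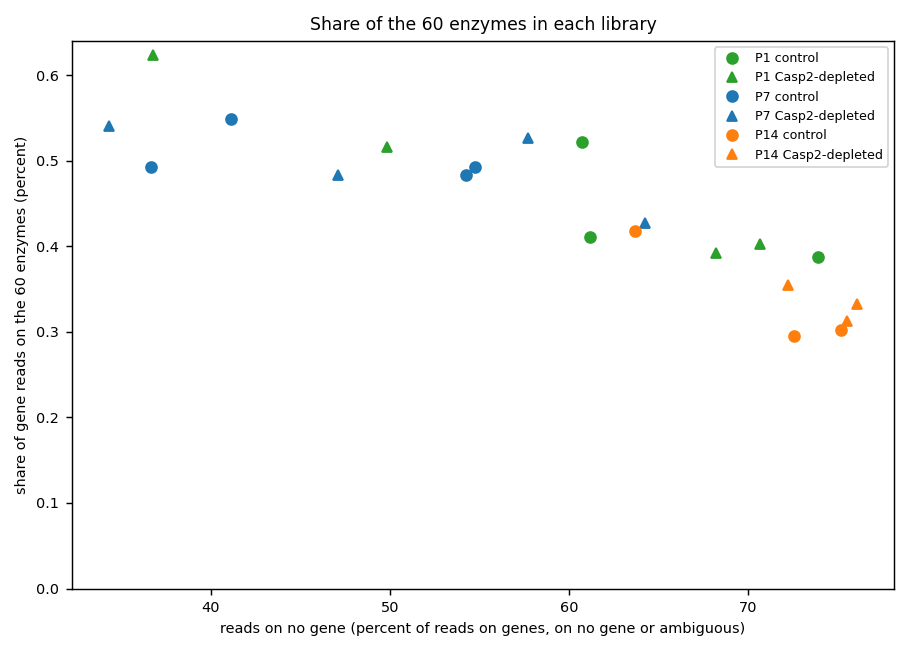
Share of gene reads on the 60 enzymes (y axis, percent) against the share of reads on no gene (x axis, percent) for each of the 21 libraries, coloured by day and shaped by genotype. The 6 P14 libraries sit at 63.7 to 76.1% on the x axis, all at 0.418% or less on the y axis.

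Over the 21 libraries a member had between 10 reads (Sirt6) and 14296 reads, with a median of 1721, against a median of 447 over the 20368 genes tested. Per kilobase of gene length, Kmt5c was the most highly read with 258 reads per kb, followed by Setd5 with 169, Kmt2e with 151, Kmt5a with 122 and Kmt2a with 116, and Sirt6 was the lowest with 1.19. Reads of 3' tags need not scale with gene length, so this is not a ranking of abundance. By reads alone Hdac9 was highest with 14296, or 16.4 per kb. Values below are TMM-normalised CPM for each library, read counts scaled to a common library size, in order of replicate number with controls first, and gene positions are on GRCm39. The TMM factors that divide these values were 0.575 to 0.983 in the P7 libraries and 1.11 to 1.57 in the P14 libraries. This scaling lowered P14 values against P7 values, and statements on the overlap of ages refer to scaled values. A member had to pass a Benjamini-Hochberg adjusted p of 0.05 in edgeR's quasi-likelihood test over all 20368 genes and an absolute log2 fold change of 1 to be called. Fewer reads of a gene at one age can come from fewer nuclei that express it or from less RNA per nucleus, and these cannot be told apart in pooled nuclei.

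**Figure D2:**
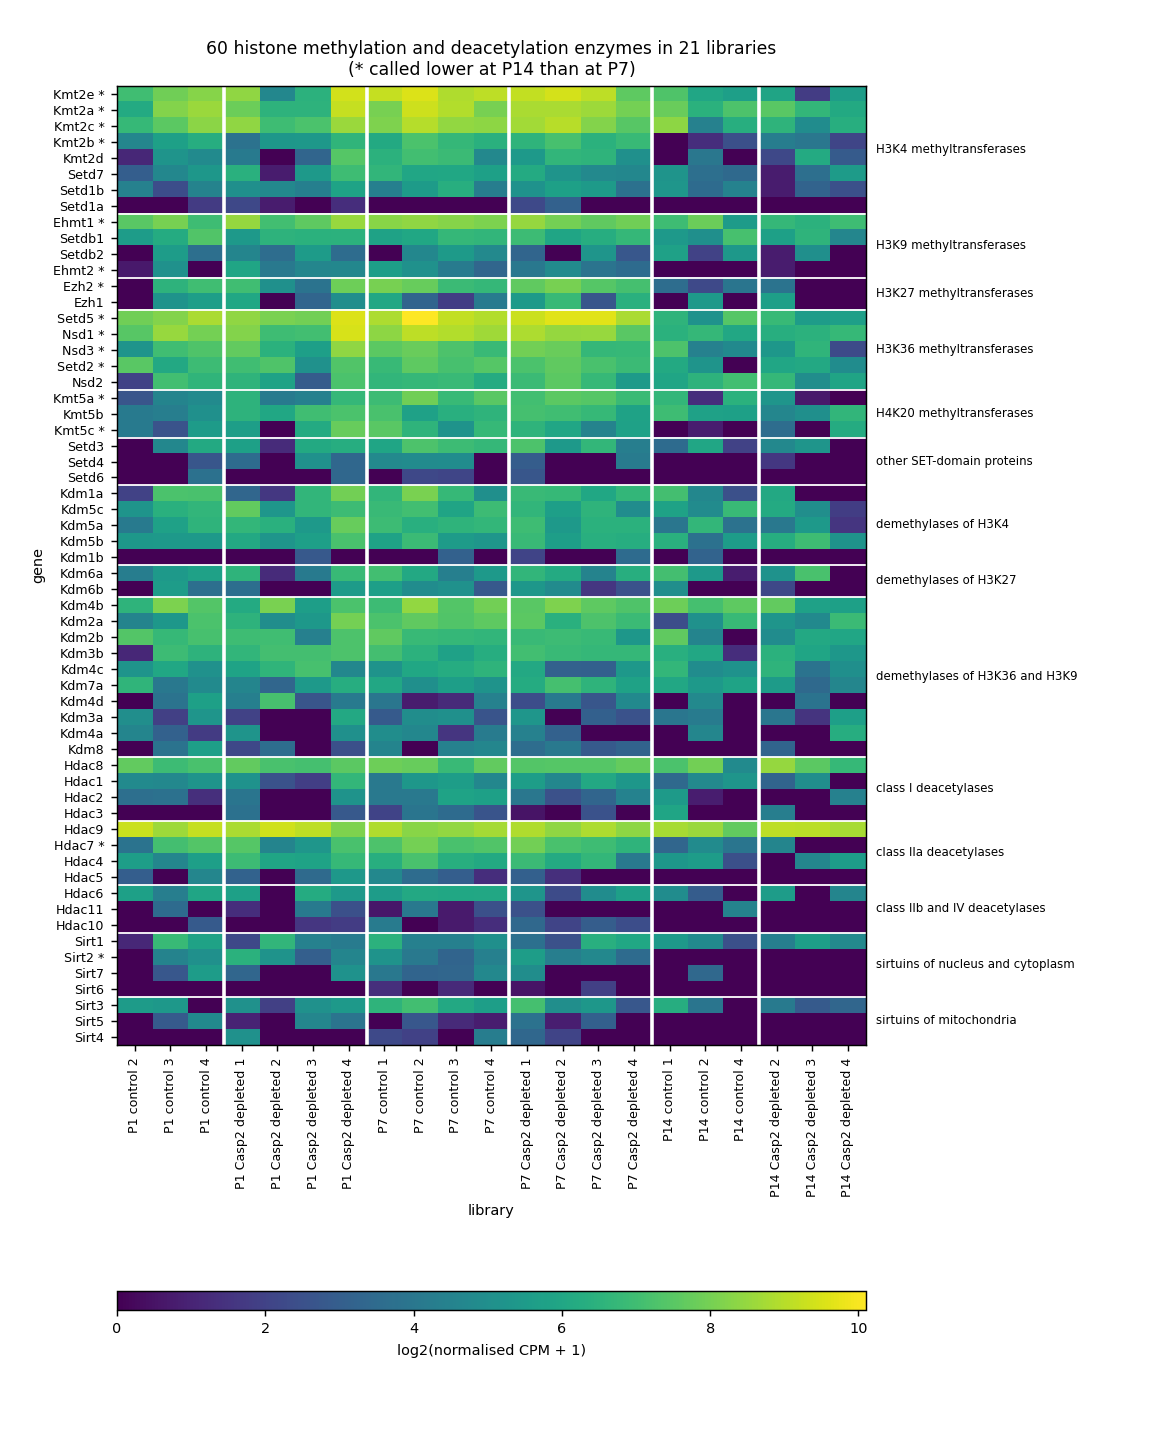
Level of each of the 60 enzymes (rows, grouped by class) in each of the 21 libraries (columns, by day and genotype), as log2(normalised CPM + 1) from dark (0) to bright. An asterisk marks the 15 enzymes called lower at P14 than at P7, and Hdac9 is bright in every library.

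From P7 to P14, averaged over both genotypes, 15 of the enzymes fell and none rose. These were 15 of the 60 (25.0%), against 8.66% of all genes tested, and 54 of the 60 log2 fold changes were negative. Their median was -1.66 on the log2 scale, where the median of all genes was -0.87, and of protein-coding genes 11.3% were called lower with a median of -1.12. In 11 members every P14 library lay below every P7 library (18.3%, against 3.81% of all genes). The fallen genes were methyltransferases with the exceptions of the deacetylases Hdac7 and Sirt2. No demethylase was among them. Along with the enzymes, 9 of the 10 cardiomyocyte markers were called lower, with a median log2 fold change of -2.65 and a summed level of 51589.9 to 161807 CPM at P7 and 10536.5 to 44475 CPM at P14, and their part in the fall of the enzymes was not tested. No marker of fibroblasts, endothelial cells, mural cells or macrophages was called in edgeR, and at an unadjusted p below 0.05 there were 1 higher and 3 lower, where 28.1% of all genes passed in either direction and 25.6% were lower. Their median log2 fold changes were -0.70 for fibroblasts, -0.02 for endothelial cells, -0.65 for mural cells and 0.32 for macrophages. The summed level of 8 fibroblast markers was 124 to 261 CPM at P7 and 129 to 311 CPM at P14, and that of 8 endothelial markers was 202 to 503 and 46.5 to 752 CPM. For 6 mural markers it was 67.2 to 226 CPM at P7 and 16.2 to 274 CPM at P14. For 7 macrophage markers it was 50.0 to 237 and 30.3 to 233 CPM. On these scaled values the ages overlapped in each of these lists. Without the TMM factors the ages overlapped too, but the medians of the summed level rose from P7 to P14. They were 131 and 299 CPM for fibroblast markers, and 247 and 579 CPM for endothelial markers. For mural markers they were 134 and 177 CPM, and for macrophage markers 53.8 and 163 CPM. Without these factors the median of the cardiomyocyte markers fell from 70257 to 23750 CPM. Egfl7 of the endothelial list and Cd68 of the macrophage list had no read at any age, C1qa and C1qb had none at P1 or P14, and Ptprc had none at P14. Among the other marker genes, the alpha globin genes of red blood cells Hba-a1 (log2 fold change -7.06) and Hba-a2 (-7.46), near-identical copies between which reads may be split, and the Y-linked Ddx3y (-8.15) were called lower. The part of these cell types, and of the sexes in the pools, was not tested either.

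The share of reads on no gene (the no-gene share) moved with age, and its ranges at P7 and P14 overlapped between 63.7 and 64.3%. With this share as a term in the fit, 3 of the 15 stayed called, Setd5 (log2 fold change -2.11, adjusted p = 9.52e-05), Ezh2 (-2.72, adjusted p = 0.0424) and Kmt2b (-3.89, adjusted p = 0.0464). The median of the 60 was then -0.48 and that of all genes -0.62. With DESeq2's size factors in edgeR, 12 were called lower and the medians were -1.41 and -0.60. Without P14 Casp2-depleted replicate 4, 10 were called lower.

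**Figure D3:**
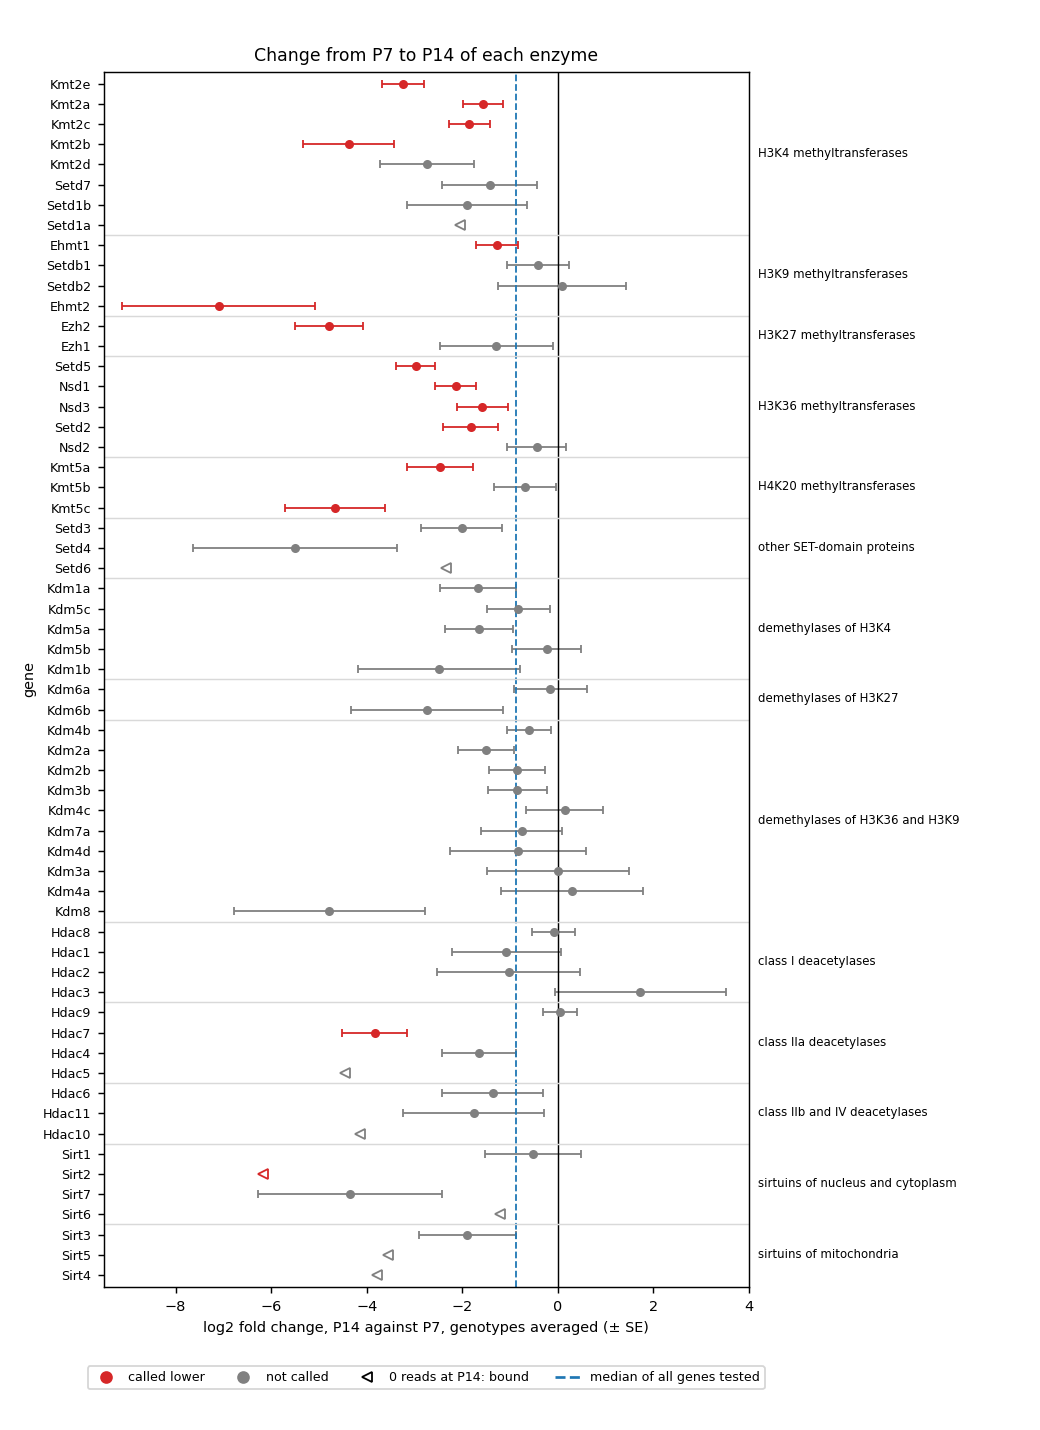
Log2 fold change from P7 to P14, averaged over both genotypes, of each enzyme with its standard error (x axis), grouped by class (y axis). Red marks the 15 called lower, open triangles mark bounds for members with no read at P14, and the dashed line is the median of all genes tested, -0.87.

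Among the 8 methyltransferases of H3K4, 4 fell and the median log2 fold change was -2.25. The large paralogues Kmt2a and Kmt2b act mainly at promoters and Kmt2c and Kmt2d at enhancers, while Kmt2e binds methylated H3K4 and its own enzyme activity is unclear. Kmt2e (chr5:23639418-23709233, plus strand) stood at 591, 751, 478 and 545 CPM in the P7 control libraries and at 581, 692, 541 and 195 in the P7 Casp2-depleted ones. At P14 it stood at 158, 62.1 and 50.7 in controls and at 59.0, 2.51 and 47.7 in Casp2-depleted libraries. Every P14 library lay below every P7 library, and Kmt2e fell by 3.25 on the log2 scale (SE 0.44, adjusted p = 4.26e-11). Part of the Kmt2e span overlaps Srpk2 on the other strand, and since the strand setting of the counting is not given in the sources used here, reads of overlapping genes cannot be told apart.

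Kmt2b (chr7:30268283-30288414, minus strand), whose span overlaps no other gene, was read at 68.8, 152, 105 and 84.5 CPM in P7 controls and 92.7, 141, 86.4 and 111 in P7 Casp2-depleted libraries. Its P14 values were 0, 1.50 and 4.54 in controls and 18.3, 15.1 and 3.27 in Casp2-depleted libraries, so that the ages did not overlap. Kmt2b fell by 4.38 on the log2 scale (SE 0.94, adjusted p = 0.000195). For Kmt2a the P7 values were 259, 642, 489 and 260.1 in controls and 447, 452, 388 and 251 in Casp2-depleted libraries, and the P14 values 218, 85.2 and 154 in controls and 184, 102 and 69.2 in Casp2-depleted libraries. The ages again did not overlap, and the fall was smaller, by 1.57 (SE 0.41, adjusted p = 0.00426). Without the TMM scaling the ages of Kmt2a did overlap. P14 control replicate 1 held 309 of its reads among 1278961 gene reads, and P7 control replicate 4 a smaller share, 348 among 1635688. The Kmt2a span overlaps Gm39326 and Gm48702 on the other strand. Kmt2c overlapped between the ages through P14 control replicate 1 at 331 CPM, with the other P14 libraries at 20.9 to 94.9 and the P7 libraries at 177 to 511, and it fell by 1.86 (SE 0.43, adjusted p = 0.000736).

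The other 4 H3K4 methyltransferases were not called. Kmt2d, the enhancer paralogue of Kmt2c, had a log2 fold change of -2.74 (SE 0.98, adjusted p = 0.055), with 0, 15.0 and 0 CPM in P14 controls and 3.51, 70.4 and 6.53 in P14 Casp2-depleted libraries against 25.4 to 129 at P7. Setd7, which adds a single methyl group to H3K4 and to other proteins, had -1.42 (adjusted p = 0.364), and Setd1b had -1.90 (adjusted p = 0.335). Setd1a had 18 reads in all at P7, all in 2 Casp2-depleted libraries, and none at P14.

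Of the 5 methyltransferases of H3K36, 4 fell, and the median of the 5 was -1.82. Their summed level was 898 to 2154 CPM in the P7 libraries and 250.2 to 467 CPM in the P14 libraries, without overlap. Setd5, a SET-domain protein whose catalytic activity is disputed, was the most highly read gene of the class per kilobase. Setd5 (chr6:113052990-113130729, plus strand) stood at 459, 1096, 583 and 487 CPM in P7 controls and 618, 809, 791 and 449 in P7 Casp2-depleted libraries. At P14 its values were 95.1, 34.4 and 173 in controls and 111, 47.1 and 51.6 in Casp2-depleted libraries, all below every P7 value, and it fell by 2.98 (SE 0.41, adjusted p = 7.06e-11). Its span overlaps Gt(ROSA)26Sor on the other strand.

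Nsd1 (chr13:55357560-55466138, plus strand), which places up to the dimethyl form of H3K36, was read at 332, 543, 488 and 406 CPM in P7 controls and 464, 359, 373 and 180.1 in P7 Casp2-depleted libraries. The P14 values were close together, 86.0, 105 and 65.1 in controls and 80.1, 89.2 and 107 in Casp2-depleted libraries. No P14 library reached the lowest P7 library, and Nsd1 fell by 2.13 (SE 0.43, adjusted p = 3.64e-05). The Nsd1 span overlaps Rab24 on the other strand. Setd2, the enzyme of H3K36 trimethylation, was at 112 to 198 CPM at P7 and at 69.8, 36.6 and 0 CPM in P14 controls and 61.2, 67.9 and 29.4 in P14 Casp2-depleted libraries, and fell by 1.82 (SE 0.58, adjusted p = 0.0254). Nsd3 fell by 1.58 (SE 0.53, adjusted p = 0.0376) with overlapping ages, since P14 control replicate 1 held 156 CPM against 106 to 245 at P7. Nsd2 had a log2 fold change of -0.44 and was not called.

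For H3K27, the pair of methyltransferases of Polycomb repressive complex 2 is Ezh2, the form of dividing cells, and Ezh1, its counterpart in cells that no longer divide. Ezh2 (chr6:47507073-47572331, minus strand) was read at 263, 213, 117 and 106 CPM in P7 controls and 197, 259, 170.1 and 139 in P7 Casp2-depleted libraries. At P14 it had 11.3, 3.74 and 14.4 CPM in controls and 13.4, 0 and 0 in Casp2-depleted libraries, and so no P14 library came near the lowest P7 value. Ezh2 fell by 4.78 on the log2 scale (SE 0.71, adjusted p = 3.89e-09), and its span overlaps Cul1 on the other strand. Ezh1 had a log2 fold change of -1.28 (SE 1.18, adjusted p = 0.531). It was read at 65.7, 8.62, 2.61 and 17.2 CPM in P7 controls, 43.8, 112, 5.49 and 84.1 in P7 Casp2-depleted libraries, 0, 42.6 and 0 in P14 controls and 51.3, 0 and 0 in P14 Casp2-depleted libraries, and 4 of the 6 P14 libraries held none of its reads.

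Beside the fall of Ezh2, the division markers Mki67 and Top2a were called lower at P14 than at P7, with log2 fold changes of -9.68 and -5.62. They were 2 of the 8 tested genes on a list of 10 genes of proliferating cells, of which 3 had a positive log2 fold change. The list's summed level was 282 to 559.6 CPM at P7 and 113 to 389 CPM at P14, with overlap. Its median was 395 CPM at P7 and 249 CPM at P14 on the scaled values. Without the TMM factors its median was 297 CPM at P7 and 355 CPM at P14. Aurkb, Ccnb1 and Mki67 had no read at P14, so the value of Mki67 has no defined size, and Ccna2 had no read at any age. The part of the genes of this list in the fall of Ezh2 was not tested.

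Among the 4 H3K9 methyltransferases, Ehmt1 and Ehmt2, the paired enzymes also called GLP and G9a, were called lower. Ehmt2 was read at 50.0, 33.8, 17.6 and 8.97 CPM in P7 controls and 15.4, 28.5, 13.7 and 10.5 in P7 Casp2-depleted libraries, and 1 read of it was counted over the 6 P14 libraries (log2 fold change -7.10, SE 2.03, adjusted p = 0.0105). Ehmt1 was at 198 to 365 CPM at P7, and its P14 values of 123, 226 and 45.4 in controls and 105, 89.9 and 124 in Casp2-depleted libraries reached into that range (log2 fold change -1.27, SE 0.44, adjusted p = 0.0432). The call of Ehmt1 held in 9 of the 29 alternative fits that did not take the no-gene share as a term, and that of Nsd3 in 11. Setdb1, which silences repeats, had a log2 fold change of -0.41 and Setdb2 of 0.09, and neither was called.

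Of the 3 H4K20 methyltransferases, 2 fell. Kmt5a, the only one that places the first methyl group and one whose protein follows the cell cycle, was read at 119, 239.8, 111 and 180.1 CPM in P7 controls and 131, 185, 174 and 116 in P7 Casp2-depleted libraries. At P14 it was at 101, 1.50 and 85.5 in controls and 38.0, 0.628 and 0 in Casp2-depleted libraries, all below the lowest P7 value of 111, and it fell by 2.46 (SE 0.69, adjusted p = 0.00774). Without the TMM scaling the ages of Kmt5a overlapped. P14 control replicate 1 held 143 of its reads among 1278961 gene reads, and P7 control replicate 3 a smaller share, 170 among 1920330. Kmt5c, which adds further methyl groups, was at 181, 93.4, 35.9 and 107 CPM in P7 controls and 92.7, 61.6, 21.9 and 53.3 in P7 Casp2-depleted libraries. At P14 it was at 0, 0.748 and 0 in controls and 11.2, 0 and 73.8 in Casp2-depleted libraries, where replicate 4 reached into the P7 range, and it fell by 4.67 (SE 1.05, adjusted p = 0.00044). Kmt5b had a log2 fold change of -0.68 and was not called.

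None of the 17 demethylases was called in edgeR, where 4 of them passed an unadjusted p of 0.05 (28.1% of all genes), and those of H3K36 and H3K9 had a median of -0.79, near that of all genes. DESeq2 called 1 of them lower, Kdm8, and limma-voom 5, Kdm1a, Kdm2a, Kdm5a, Kdm6b and Kdm8. Kdm6a, the X-linked demethylase of H3K27, had a log2 fold change of -0.15 (SE 0.77), and its P14 values of 135, 43.4 and 0.757 CPM in controls and 34.4, 146 and 0 in Casp2-depleted libraries spanned more than the 19.6 to 131 of P7. Kdm6b, the inducible counterpart, had -2.73 (SE 1.59, adjusted p = 0.253), with reads in 2 of 6 P14 libraries. Kdm2a, a demethylase of H3K36 at CpG islands, had -1.50 (SE 0.59, adjusted p = 0.0797). Among the demethylases of H3K4, Kdm1a had -1.67 (adjusted p = 0.15), Kdm5a had -1.65 (adjusted p = 0.103) and the X-linked Kdm5c had -0.83 (adjusted p = 0.446). Kdm4c and Kdm4a, which act on H3K9 and H3K36, had positive values of 0.15 (SE 0.80) and 0.30 (SE 1.49).

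Of the 4 class IIa deacetylases, which repress MEF2 target genes, only Hdac7 was called. Hdac7 (chr15:97687372-97742383, minus strand) was read at 153, 252, 147 and 165 CPM in P7 controls and 244, 145, 124 and 93.9 in P7 Casp2-depleted libraries. At P14 it was at 9.16, 28.4 and 14.4 in controls and 23.2, 0 and 0 in Casp2-depleted libraries, without overlap, and fell by 3.83 (SE 0.68, adjusted p = 1.67e-06), with Slc48a1 overlapping its span on the other strand. Hdac9 (chr12:34097579-34967094, minus strand), by far the longest gene of the 60, was read at 470.1, 318, 354 and 431 in P7 controls, 471, 346, 462 and 337 in P7 Casp2-depleted libraries, 437, 381 and 206 in P14 controls and 544, 524 and 438 in P14 Casp2-depleted libraries. The ages overlapped, and its log2 fold change was 0.05 (SE 0.35). Another annotated gene, Gm47357, lies within its span on the same strand. The difference between Hdac7 and Hdac9 itself was not tested.

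Hdac4 had a log2 fold change of -1.65 (adjusted p = 0.142) and 0 to 47.1 CPM at P14 against 16.1 to 146 at P7. Hdac5 had reads in 6 of 8 P7 libraries, at up to 25.5 CPM, and none at P14, which made it at least 21.9-fold lower when 3 reads over the 6 P14 libraries are taken as the limit of a count of 0 (adjusted p = 0.058). Such limits cover counting error only. The summed level of the class was 447 to 839 CPM at P7 and 225 to 567 CPM at P14, with overlap.

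No class I deacetylase was called in edgeR, DESeq2 or limma-voom, and 0 of the 4 passed an unadjusted p of 0.05 in edgeR (28.1% of all genes). Hdac8, the X-linked member that works outside the corepressor complexes, was at 231, 217, 115 and 201 CPM in P7 controls, 169, 174, 171 and 206 in P7 Casp2-depleted libraries, 149, 243 and 27.2 in P14 controls and 363, 185 and 108 in P14 Casp2-depleted libraries. The ages overlapped, with a log2 fold change of -0.08 (SE 0.45). The paired corepressor enzymes Hdac1 and Hdac2 had -1.08 (SE 1.14) and -1.03 (SE 1.49), and Hdac3, the enzyme of the NCoR complex, had 1.73 (SE 1.79). Hdac3 was read in 2 of 6 P14 libraries, at 59.9 CPM in control replicate 1 and 19.0 in Casp2-depleted replicate 2, and at this depth changes of several fold in these 3 genes were not detectable.

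Among the sirtuins, Sirt2, a mainly cytoplasmic enzyme, was read in all 8 P7 libraries, at 35.4, 15.8, 8.48 and 20.2 CPM in controls and 48.9, 19.0, 25.4 and 10.5 in Casp2-depleted libraries, with 311 reads in all. None of the 6 P14 libraries held a read of it, which made it at least 71.6-fold lower (adjusted p = 0.00226), and its span overlaps Nfkbib on the other strand. Sirt1, the nuclear enzyme, had a log2 fold change of -0.51 (SE 1.01) and Sirt3, the main deacetylase of mitochondria, had -1.90 (adjusted p = 0.202). The low-count Sirt4, Sirt5 and Sirt6 had no read at P14. In all, 8 of the 60 members had no read in any P14 library, the others being Sirt2, Setd1a, Setd6, Hdac5 and Hdac10.

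**Figure D4:**
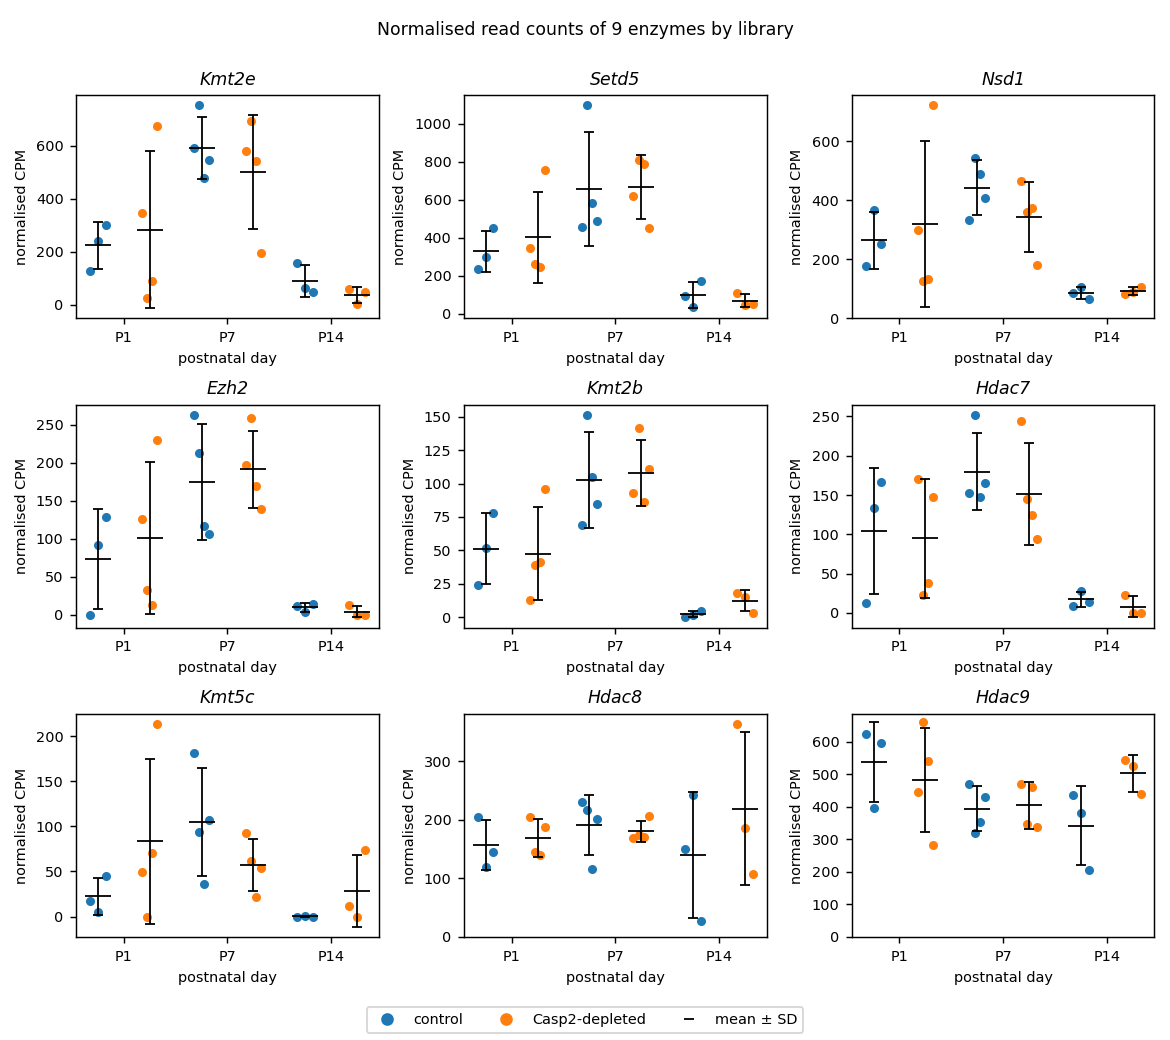
Normalised CPM of 9 enzymes by day and genotype, with a point per library and bars for the group mean and SD. Kmt2e, Setd5, Nsd1, Ezh2, Kmt2b and Hdac7 lie lower in every P14 library than in any P7 library, Kmt5c overlaps through 1 P14 Casp2-depleted library, and the ages overlap for Hdac8 and Hdac9.

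Gene length went along with the change from P7 to P14. Across the 60 members, the Spearman correlation of the log2 fold change with gene length was 0.51, or 0.45 with members without P14 reads set at their bounds, and that with the exonic percent of the gene was -0.51. With the total reads of the member it was 0.29. These correlations describe points that share the same libraries. The 20 shortest members, of 5572 to 26737 bases, summed to 444 to 919.9 CPM in the P7 libraries and 61.0 to 345 CPM in the P14 libraries, and their median log2 fold change was -3.86. Hdac10, Sirt4, Sirt6, Setd6, Sirt2 and Setd1a, which enter this median, had no P14 read, so their values have no defined size. The median of the summed level was 645 CPM at P7 and 142 CPM at P14. The 20 of middle length summed to 1099.5 to 2152 CPM at P7 and 398 to 809 CPM at P14, with a median of -1.16. The 20 longest, of 70175 to 869516 bases, summed to 2800.3 to 5491 CPM at P7 and 1366 to 2613 CPM at P14, with a median of -1.39. The medians of the summed level at P7 and P14 were 1701 and 463 CPM for middle length and 4010 and 1792 CPM for the longest. In none of these groups did the P7 and P14 libraries overlap on the scaled values. Called lower were 5, 3 and 7 members of these groups in turn, so falls were present at every length. From P1 to P7 the correlation of log2 fold change with length was -0.11.

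**Figure D5:**
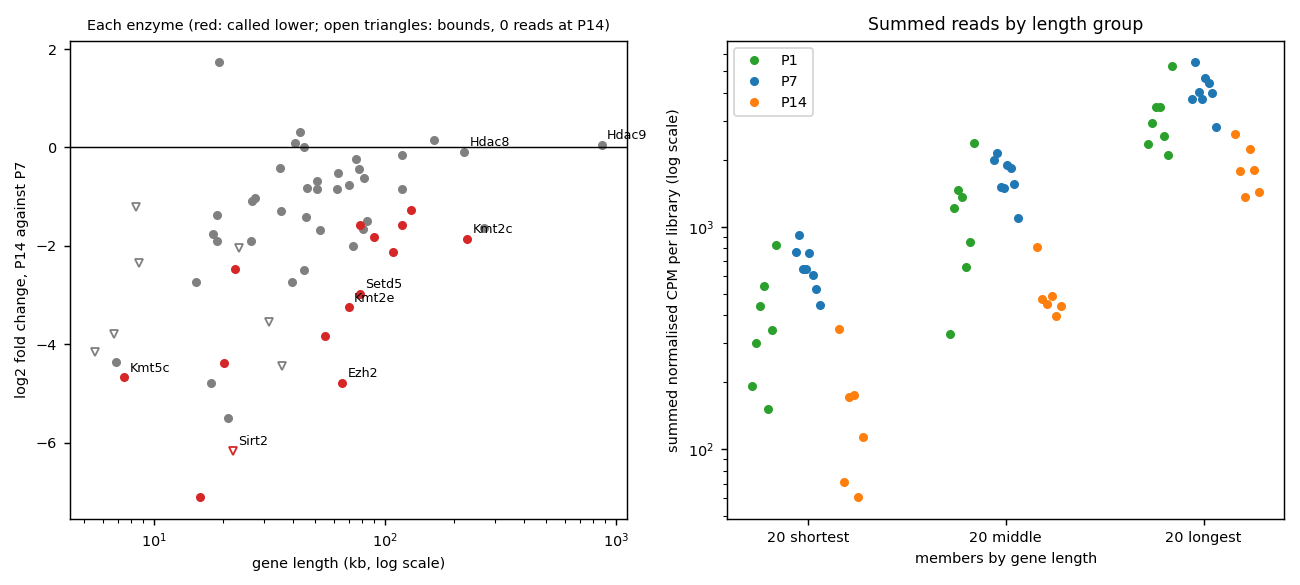
Left, log2 fold change from P7 to P14 of each enzyme against gene length in kb on a log axis, with those called lower in red and open triangles for bounds of members with no read at P14. Right, summed normalised CPM on a log axis of the 20 shortest, 20 middle and 20 longest enzymes, with a point per library, where the P14 libraries of the 20 shortest lie at 61.0 to 345 CPM and those of the 20 longest at 1366 to 2613 CPM, below all P7 libraries of the same group.

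Within each genotype the same comparison had fewer libraries. In controls, P14 against P7, 7 of the 60 were called lower, against 1.87% of all genes. They were Setd5 (log2 fold change -2.70, adjusted p = 0.000492), Kmt5c (-8.32, adjusted p = 0.000684, with 1 read over the 3 P14 control libraries), Kmt2e (-2.71, adjusted p = 0.00127), Ezh2 (-4.15, adjusted p = 0.00276), Kmt2b (-5.62, adjusted p = 0.00898), Nsd1 (-2.37, adjusted p = 0.00985) and Hdac7 (-3.37, adjusted p = 0.0222). The median of the 60 was -1.33, against -0.75 for all genes. Without P7 control replicate 2 or without P14 control replicate 2 the count was 4, and with the no-gene share as a term it was 0.

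In Casp2-depleted mice, 7 were called lower, against 2.82% of all genes, with a median of -1.81 against -0.61. They were Kmt2e (log2 fold change -3.78, adjusted p = 9.47e-07), Setd5 (-3.25, adjusted p = 5.95e-06), Ezh2 (-5.42, adjusted p = 3.92e-05), Hdac7 (-4.29, adjusted p = 0.00123), Kmt2c (-2.36, adjusted p = 0.00927), Kmt5a (-3.55, adjusted p = 0.024) and Nsd1 (-1.90, adjusted p = 0.0499). The call of Nsd1 here was lost in 16 of the 21 fits that left out a library and in 7 of the 9 other alternatives. Kmt2e, Setd5, Ezh2, Hdac7 and Nsd1 were thus called in both genotypes. These share no libraries but were tested in 1 fit with the same estimate of spread and the same scaling, so their calls are not independent. The share of all genes called in both is not given here. In Casp2-depleted mice the count was 4 without P7 Casp2-depleted replicate 2, 3 without P14 Casp2-depleted replicate 3 or replicate 4, and 2 with the no-gene share as a term.

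Between P1 and P14, the 2 ends of the course, 10 of the 60 were called lower and none higher, against 4.00% of all genes called lower. Their median was -1.06, and that of all genes -0.57. This comparison shares its P14 libraries with that of P14 and P7. Setd5 was at 238, 302 and 449.8 CPM in P1 controls and 345, 264, 248 and 756 in P1 Casp2-depleted libraries, all above the highest P14 value of 173, and was lower at P14 by a log2 fold change of -2.12 (SE 0.40, adjusted p = 2.18e-05). Nsd1 was at 175, 366 and 250.3 in P1 controls and 299.7, 125, 131 and 721 in P1 Casp2-depleted libraries, likewise above every P14 value on the scaled values (-1.71, SE 0.43, adjusted p = 0.00427). Ezh2 spread widely at P1, from 0 to 231 CPM, and overlapped P14 (-3.69, SE 0.68, adjusted p = 1.62e-05).

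Also lower at P14 than at P1 were Kmt2e (-2.14, adjusted p = 7.55e-05), Hdac7 (-3.10, adjusted p = 0.000376), Kmt5c (-3.82, adjusted p = 0.0112), Kmt2b (-3.29, adjusted p = 0.0141) and Ehmt2 (-6.91, adjusted p = 0.0236). Sirt2 was at least 90.3-fold lower (adjusted p = 0.0041) and Hdac5 at least 39.8-fold (adjusted p = 0.0479), though the call of Hdac5 was lost in 18 of the 21 fits that left out a library and in 6 of the 9 other alternatives. On the other side, Hdac3 had 4.19 (SE 1.97, adjusted p = 0.198), Kmt5b 0.35, Kdm6a 0.37, Kdm5b 0.11 and Hdac8 0.10, none of them called. Since Hdac3 had no read in the P1 controls used, its value has no defined size. The count was 6 without P1 Casp2-depleted replicate 4. With the no-gene share as a term it was 2, with Setd5 (-1.62, adjusted p = 0.000437) and Sirt2 (adjusted p = 0.0398).

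In the first week, from P1 to P7, no member was called in edgeR, DESeq2 or limma-voom, against 0.0933% of all genes, and 43 of the 60 log2 fold changes were positive, with a median of 0.43 where that of all genes was 0.22. At an unadjusted p below 0.05 there were 4 members, against 9.53% of all genes. Kmt5a came nearest, with 5.40, 22.5 and 27.7 CPM in P1 controls and 90.7, 16.8, 20.3 and 105 in P1 Casp2-depleted libraries, all below the lowest P7 value (log2 fold change 2.25, SE 0.65, adjusted p = 0.168). Kmt2e had 1.11 (SE 0.38, adjusted p = 0.341), Setd5 0.86 (SE 0.35, adjusted p = 0.367), Ezh2 1.09 (SE 0.56, adjusted p = 0.54) and Sirt6 3.38 from 10 reads in all. None of these Sirt6 reads was at P1, so its value has no defined size. In the other direction the values were -1.22 for Setd1a, -1.50 for Kdm4d, -0.35 for Hdac9, -1.65 for Sirt5 and -1.27 for Hdac5, with adjusted p of at least 0.86. Without P1 Casp2-depleted replicate 4, Kmt2e was called.

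In controls alone, P7 against P1, none was called (0.00982% of all genes) and 4 passed the unadjusted p (6.67% of all genes), among them Kmt5a with 3.13 and Kmt2e with 1.40, at adjusted p of 0.626 or more. In Casp2-depleted mice none was called (0.0196% of all genes) and 0 passed the unadjusted p in edgeR (7.40% of all genes). DESeq2 and limma-voom called none in either genotype.

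Loss of Casp2 was the study's main contrast, and at no age did it give a called member. DESeq2 and limma-voom called none at P1, at P7 or over the averaged ages either, and at P14 DESeq2 called Kmt5c alone. At P1 none was called in edgeR (0% of all genes) and 2 passed an unadjusted p of 0.05 (7.34% of all genes). Kmt5b was at 16.8, 19.0 and 32.5 CPM in controls and 90.2, 64.3, 126 and 150.4 in Casp2-depleted libraries, without overlap (log2 fold change 2.24, SE 0.98, adjusted p = 0.644). Sirt4 was read in Casp2-depleted replicate 1 alone. Hdac3 had 5.86 (SE 3.06), Kmt5a 1.65 (SE 0.94) and Kdm1b 4.29 (SE 2.74), while the lowest values by p were -2.14 for Kdm8, -0.41 for Kdm4b, -0.67 for Sirt1, -0.38 for Kdm2b and -0.16 for Hdac9. Hdac3 and Kdm1b had no read in the P1 controls used, so their values have no defined size. The median of the 60 was 0.40 and that of all genes 0.08.

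At P7 none was called (0% of all genes), and Setd1a, with 18 reads in Casp2-depleted libraries and none in controls, alone passed the unadjusted p (4.22% of all genes; adjusted p = 1). By p, the next values were 1.38 for Ezh1 (SE 1.52), 0.97 for Kdm7a, 1.43 for Sirt5 and 0.36 for Kdm3b, and in the other direction -2.58 for Hdac3, -1.11 for Kdm4c, -2.26 for Hdac5, -0.86 for Kmt5c and -2.10 for Hdac11. The median was -0.23, against -0.03 for all genes.

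At P14 none was called (0.167% of all genes) and 4 passed the unadjusted p (12.8% of all genes). Kmt5c, given above by library, had 129 reads over the 3 Casp2-depleted libraries and 1 read over the 3 controls, most of them in Casp2-depleted replicate 4 (log2 fold change 6.44, SE 1.70, adjusted p = 0.0663). Kmt5a had -2.28 (SE 1.00, adjusted p = 0.382), Kmt2e -1.31 (SE 0.60, adjusted p = 0.388) and Kmt2b 2.56 (SE 1.30, adjusted p = 0.389). Further members by p were Kdm8 at 5.15, Kmt2d at 2.41 and Setd4 at 3.26, and in the other direction Hdac11 at -6.51, Sirt7 at -5.35 and Kmt2c at -1.08. Kdm8 (12 reads), Setd4 (3 reads), Hdac11 (29 reads) and Sirt7 (13 reads) were each read in 1 P14 library alone. The values of these genes thus have no defined size. Leaving out Casp2-depleted replicate 2 raised the count of called members to 5, namely Ezh2, Hdac7, Kdm1a, Kmt5a and Kmt5c. It was 1 without P14 control replicate 2, without P14 Casp2-depleted replicate 3 or without P1 Casp2-depleted replicate 2, Kmt5c each time.

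Averaged over the ages, none was called (0.0147% of all genes), and Kmt5c alone passed the unadjusted p (8.40% of all genes), with 2.49 (SE 0.76, adjusted p = 0.283). Kmt2d had 1.06, Kmt2b 0.84, Setd4 1.45 and Kmt5b 0.62, and on the lower side Hdac11 had -2.64, Sirt7 -2.33, Kmt2e -0.40 (SE 0.31), Kdm4b -0.46 (SE 0.37) and Kdm6b -1.40, none with an adjusted p below 0.677. Setd4 had no read in P14 controls, and Hdac11 and Sirt7 had none in P14 Casp2-depleted libraries, so their values have no defined size. For the change of the genotype difference between ages, none was called from P1 to P7 (0% of all genes) or from P7 to P14 (0.0245% of all genes). The unadjusted p was passed by Hdac3 from P1 to P7 (-8.45, adjusted p = 0.675; 6.83% of all genes) and by Kmt5c from P7 to P14 (7.30, SE 1.98, adjusted p = 0.271; 9.76% of all genes), which DESeq2 called. With no read in the P1 controls used, the value of Hdac3 has no defined size. In simulated libraries of this depth and spread, some genes were raised at P14 or in the Casp2-depleted P7 libraries. Between P14 and P7, 30 of 200 genes raised 4-fold and 148 of 200 raised 16-fold were called. Between genotypes at P7 these were 0 of 200 and 101 of 200. Genes of low mean level were not raised and no fall was simulated, so these counts do not give the recovery of falls.

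Genes that work with these enzymes were described from lists fixed by name. None of their members was called higher at P14 than at P7 (0.260% of all genes). Called lower were 8.66% of all genes, with a median of -0.87, and 11.3% of protein-coding genes, with a median of -1.12. Of 28 tested partners in deacetylase complexes, 10 were called lower with a median of -2.18. The largest falls were those of Sap18 (-7.36, SE 2.30), Dnttip1 (-4.95), Arid4a (-3.69), the NuRD helicase Chd3 (-3.34) and Arid4b (-3.13). Of 17 histone acetyltransferases, 6 were called lower with a median of -1.23. The largest falls were those of Kat8 (-7.09, SE 2.35), Kat5 (-6.32, SE 1.87), Kat6a (-3.18), Naa40 (-3.12) and Crebbp (-2.56). Of 16 genes of MEF2 and class IIa signalling, 6 were called lower with a median of -1.10. The largest falls were those of Mef2a (-3.45), the binding protein Ywhae (-2.86), Mef2d (-2.44) and the kinases Camk2g (-2.85) and Camk2d (-1.86).

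Of 16 other lysine methyltransferases and demethylases, 3 were called lower, Dot1l (-2.52), the muscle enzyme Smyd1 (-2.26) and Prdm16 (-1.56). Of 18 partner subunits of COMPASS and Polycomb complexes, Jarid2 (-1.59) was called lower, where 8.66% of all genes were. Among 8 arginine methyltransferases and 12 genes of NAD synthesis none was called in edgeR, with medians of -0.33 and -0.98, and 1 and 2 of them were lower at an unadjusted p below 0.05 (25.6% of all genes). From P1 to P7 no gene of these lists was called (0.0933% of all genes). These falls went along with the same no-gene shares and the same cardiomyocyte marker levels as those of the enzymes, and their part was not tested.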

How the data were processed

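The authors sorted PCM1-positive nuclei, sequenced QuantSeq 3' FWD libraries made with the low-input protocol, trimmed the reads with cutadapt 4.0 (quality seen with FastQC 0.11.8), aligned them with STAR 2.6.1e to GRCm39 and made the deposited counts with HTSeq 2.0.3 over whole genes, as whole numbers of reads per Ensembl gene without normalization. Strand setting and molecular identifiers are not given in the sources used here. Names came from GENCODE vM39 for 56236 of the 56923 identifiers, with 99.5% of the reads. HTSeq's totals of reads on no gene, 34.3 to 76.1% of the reads placed in the 21 libraries, stayed out of library sizes and tests.

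Groups and replicate numbers came from the sample titles. Replicates were pools of hearts, and the 27 pairs within groups differed beyond sampling noise (chi-square over its degrees of freedom 17.8 to 75.3). Genes with at least 10 reads in all and a read in at least 3 libraries (20368) entered edgeR 4.0.16 (R 4.3.3), scaled by TMM, with 6 group means over 21 libraries, a robust quasi-likelihood fit with 15 residual degrees of freedom and the F-test. The biological coefficient of variation was 1.50. A called gene had a p adjusted by Benjamini-Hochberg over all genes tested below 0.05 and a log2 fold change over 1 in size. Standard errors were computed as the size of the log2 fold change over the square root of F. The fit was tested on simulated counts. Tables were made in Python 3.11.15 (pandas 2.3.3, numpy 2.4.6, scipy 1.17.1).

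The rule for named genes took every called member and a list of members known in heart or central to their class. It also took the 5 members of smallest p in each direction of the averaged day and the genotype comparisons. Of each companion list it took up to 5 called genes by size of log2 fold change. Members, lists, tests and alternatives were chosen with earlier results of these data known. Alternatives were other low-count filters, DESeq2's size factors in edgeR, DESeq2 1.42.0, limma-voom (limma 3.58.1), the adjusted p alone, all 24 libraries, the replicate number as a block, the no-gene share as a term and leaving out each library. A fit without the robust option was chosen after seeing the data. Of the marker list of red blood cells, only the called genes and the summed level printed above are reported here. Of the list of sex-linked genes, only the called gene is reported here.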

Additional observations from a re-analysis of the deposited data

Results flagged for a closer look

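Within groups of 4 libraries, 111 gap tests by Dixon's criterion were made over the summed share of the enzymes and part of the members. These were the called members, a fixed list, and those of unadjusted p below 0.05 in comparisons other than P14 with an earlier day. Chance alone passes about 1 in 20 tests of normally distributed values, which counts with many values of 0 are not. A gene read in 1 of 4 libraries always passes. Of the 111 tests, 9 passed. At P1, Casp2-depleted replicate 4 held 173 CPM of Kmt2d, where the next library held 17.0, and Casp2-depleted replicate 1 held 33.1 CPM of Sirt4, where the other 3 held none. At P7, control replicate 2 held 146 CPM of Hdac4 (next 79.6) and 252 CPM of Hdac7 (next 165), and control replicate 1 held 89.6 CPM of Sirt1 (next 31.4) and the highest summed share of the enzymes, 0.549% (next 0.493%). Casp2-depleted replicate 3 of P7 held 4.80 CPM of Hdac3 and 2.74 CPM of Sirt6, where the next held 0.466 CPM of each, and Casp2-depleted replicate 4 held 206 CPM of Hdac8 (next 174).

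The 3 libraries the study left out, which entered no comparison, had larger summed shares of the enzymes than the kept libraries of their groups. P1 control replicate 1 gave 0.685% of its gene reads to them, where the other P1 controls gave 0.387 to 0.521%. P14 control replicate 3 gave 0.533% with reads on 16 of the 60 members, where the other P14 controls gave 0.295 to 0.418%. P14 Casp2-depleted replicate 1 gave 0.520% with reads on 22 members, where its group gave 0.313 to 0.355%.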

How the results depend on the processing

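For P14 against P7 averaged over genotypes, 15 members were called lower, and the count was 23 in limma-voom, 3 with the no-gene share as a term and 10 to 16 on leaving out each library. Ehmt2, Ezh2, Hdac7, Kmt2b, Kmt2e, Kmt5c, Setd5 and Sirt2 were called in all 29 alternative fits without that term, and Ehmt1 in 9, Nsd3 in 11 and Setd2 in 18. With that term Nsd3 changed sign, to 0.051. For P14 against P1 the count of 10 became 4 in limma-voom, 2 with the no-gene share and 6 to 12 on leaving out each library. In controls the 7 called lower became 4 with edgeR's filterByExpr, 1 with all 24 libraries, 0 with the no-gene share and 4 to 7 on leaving out each library. In Casp2-depleted mice the 7 became 4 with filterByExpr, 4 with DESeq2's size factors in edgeR, 1 with all 24 libraries, 2 with the no-gene share and 3 to 7 on leaving out each library. For genotype at P14 the count of 0 became 1 in DESeq2 and 1 without the robust option, Kmt5c in both, and 0 to 5 on leaving out each library. For its change from P7 to P14 it became 1 in DESeq2 (Kmt5c) and 0 to 4 on leaving out each library, the 4 without P14 Casp2-depleted replicate 2. For genotype averaged over the ages it was 0 to 1 (Kdm1a without that library), and for P7 against P1 0 to 1 (Kmt2e without P1 Casp2-depleted replicate 4). The cause of these shifts was not tested.

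The replicate number as a block gave 17 members called lower from P7 to P14 and 9 from P1 to P14. Deviations of same-numbered libraries from their group means correlated at -0.059 to 0.185 over 9 pairs, 1 of them above 0.1. Those of other numbers correlated at -0.140 to 0.099 over 28 pairs. The titles give only a number, and whether same-numbered libraries shared a batch was not tested. Depth limits the genes of few reads, since members had as few as 10 reads over the 21 libraries and 23 of the 60 had a read in each.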
